A study of Mus musculus with 36 samples.

Results

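The lot 6 line pair consists of a female and a male line of mouse astrocytes from the same litter, and its 6 libraries, 3 of each line, were taken from 36 by the lot and sex in the labels. Both lines lacked Nf1 (Nf1-/-), carried the transforming DNp53, a dominant-negative form of p53, and grew in DMEM/F12 medium with fetal bovine serum, penicillin and streptomycin. The other 8 lines, with 30 libraries, were a female and a male line from each of lots 7, 8, 11 and 12, with the same genotype and medium. Polyadenylated RNA was measured by BRB-seq, which tags the 3′ ends of transcripts from many samples with barcodes and sequences them in 1 pool. With 1 line per sex in the litter, a difference between the sexes and a difference between these 2 lines cannot be told apart. Separate cultures for the libraries of a line are not stated in the labels, so p-values within the pair measure the spread between libraries.

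Nf1 encodes neurofibromin, which switches Ras off, and p53 is a transcription factor that halts or kills damaged cells. Astrocytes that lose both brakes become tumorigenic and are used as models of high-grade glioma. Astrocytes support neurons with nutrients and ion buffering, carry traces of the brain region in which they arose, and answer interferons and other cytokines when they become reactive.

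Library totals were 6278447 to 7562901 counts in the female line, 6075624 to 6888490 in the male line and 4358098 to 7445520 in the other 8 lines. Between 13764 and 13993 genes were detected in the female libraries, against 12911 to 13238 in the male libraries. Values below are CPM after TMM scaling (counts scaled to a library of fixed size), and 3 counts in a library, taken as the detection floor, correspond to 0.397 to 0.688 CPM before TMM scaling. Nf1 itself stood near this floor, at 1.28, 0.288 and 0.428 CPM in the 3 female libraries and 2.77, 4.42 and 0.597 CPM in the 3 male ones, and its difference did not pass (edgeR adjusted p 0.09496). Trp53, which the 3′ counts do not separate from a transgene, was at 177, 175 and 187 CPM across the female line against 304, 307 and 263 CPM across the male line. The sexes were as labelled. The Y-linked genes Ddx3y, Eif2s3y, Kdm5d and Uty together made up 0.264 to 0.610 CPM of a female library, before TMM scaling. They made up 24.8 to 35.1 CPM of a male library on the same scale. Mitochondrial mRNA took 0.538 to 0.612% of the counts in the female line and 0.537 to 0.676% in the male line.

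The labelled cell type was checked against 18 astrocyte markers. The means of 10 of them exceeded 1 CPM in the female line and those of 9 in the male line, led by Apoe and Nfib in the female line and by Gja1 and Nfib in the male line. Several defining markers were near 0. Gjb6 and Hepacam had no count in either line, Gfap had no count in the female line and 1 count in the male line, and Aqp4 had 8 counts in the female line and 0 in the male line. Markers of other cells differed by type. Of 11 pericyte and smooth muscle markers, 4 exceeded 1 CPM in the female line and 3 in the male line, above all Acta2. Of 15 meningeal and fibroblast markers, 5 exceeded 1 CPM in the female line and 4 in the male line. Among the latter, Col1a1 and Col1a2 were the ones high in the male line. Each list had 5 markers with no count in either line (both are given beside the contractile and matrix genes). Of 16 microglia and macrophage markers, 8 had no count in lot 6, among them Aif1, Itgam and the C1q genes, and the whole list summed to 5.66 CPM in the female line, 5.12 in the male line and 7.03 to 11.9 in the other lines. Of 11 endothelial markers, 5 had no count in lot 6, Pecam1 among them, and the list summed to 3.08 CPM in the female line, 3.86 in the male line and 8.03 to 17.9 in the others. Of 12 oligodendrocyte lineage markers, 8 had no count in lot 6, including Olig1, Olig2 and Sox10. Of 12 neural progenitor markers, 7 exceeded 1 CPM in the female line and 6 in the male line, among them Nes and Sox2. The numbers were 5 and 4 of 15 for neuron markers and 4 and 3 of 13 for Schwann and neural crest markers.

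The 2 lines were compared over all autosomal genes. Of 11717 autosomal genes tested, 1576 (13.5%) were higher in the female line and 1661 (14.2%) were lower, by edgeR's quasi-likelihood test at an adjusted p under 0.05. Large fitted differences were more often rises than falls. Among genes that passed, 997 were over 2-fold higher against 678 over 2-fold lower. Over 32-fold, 168 were higher against 51 lower. Genes absent from a line and genes tested only through the female line were not taken out of these counts. Fitted values of absent genes are no measure of size, and more genes were detected in the female libraries. Which direction moved farther therefore cannot be read from these counts. The same fit called 27.6% of the 11717 genes in lot 6. It called 10.8% for lot 7, 11.4% for lot 8, 4.27% for lot 11 and 3.77% for lot 12. With library totals in place of TMM scaling, the median of all genes shifted by 0.222 on the log2 scale and the split became 2336 higher and 1076 lower. Changes below are relative to TMM scaling. In bulk RNA, fewer cells that express a gene and less of its RNA per cell cannot be told apart.

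The female line was the one that stood apart from the rest of the series. Over 5030 well expressed autosomal genes (mean log2 CPM 4 or more), the root mean square log2 distance from the mean of the other 8 lines was 0.661, 0.681 and 0.674 in the 3 female libraries, against 0.466, 0.447 and 0.443 in the 3 male libraries. The means of the other 8 lines, each measured in the same way, ranged from 0.40 to 0.539. All 3 female libraries therefore lay beyond every other line mean and all 3 male libraries lay among them. Libraries of the same lot 6 line differed by 0.309 to 0.403 on this scale. The distance between the 2 lines of the litter was 0.810, and the female line was closer to 6 of the 8 other lines than to its own litter mate, with lot 7 female nearest, at 0.597. The male line was nearest to lot 11 male, at 0.438, and lot 8 male, at 0.439.

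**Figure D1:**
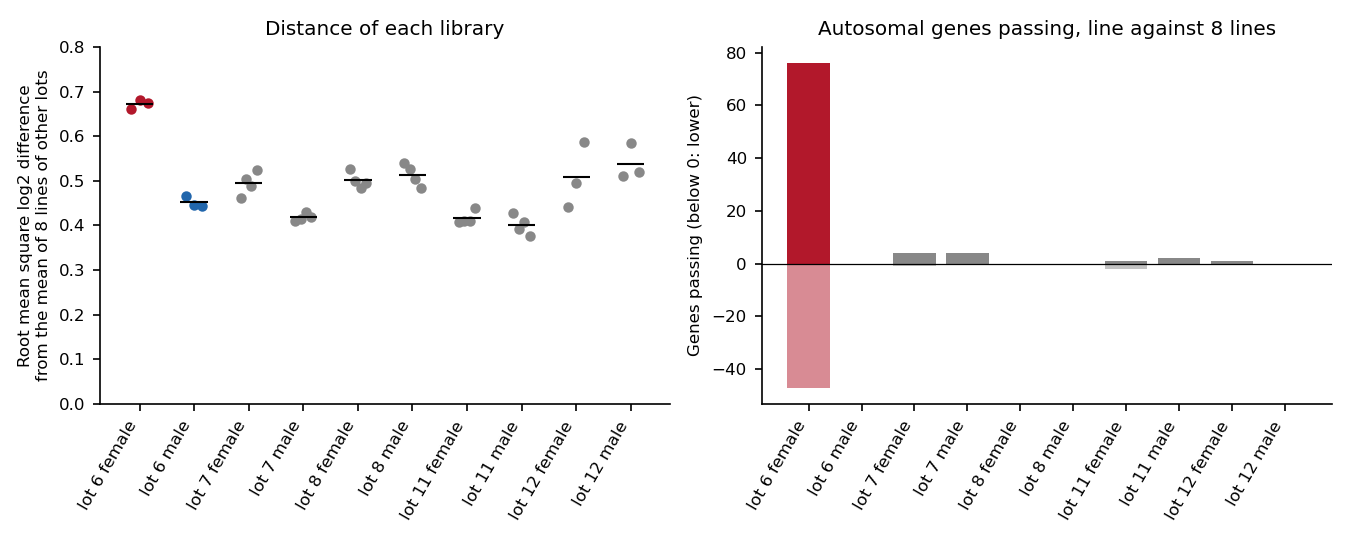
The left panel plots each library's root mean square log2 distance from the mean of 8 lines of other lots, over 5030 autosomal genes, by line. The right panel plots autosomal genes passing edgeR's quasi-likelihood test for each line against the 8 lines of other lots, higher above 0 and lower below 0, and the lot 6 female line has 76 higher and 47 lower where the other 9 lines have 0 to 5 in all.

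Set against the other 8 lines, with the libraries of each line summed and the lone line assumed to vary like the 8, the female line had 76 genes higher (0.545% of 13947 tested) and 47 lower (0.337%) by edgeR's quasi-likelihood test, adjusted over all genes. The male line had 0 higher (0.0%) and 0 lower (0.0%), with 873 genes at an unadjusted p under 0.05, against 2208 for the female line, and DESeq2 called 10 higher and 11 lower. Both comparisons share the same 8 lines. In the same test the other lines had 0 to 5 genes each. The female count depended on the lines in the fit: it was 192 without lot 7 female, 52 without lot 11 male, 56 without lot 7 male, 64 without lot 11 female and 81 without lot 8 female. It was 15 with sex as a covariate and 1 against the 4 other female lines alone.

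Of the 38 genes that passed this test and met the rule for named genes, 11 also passed with sex as a covariate. Among them were Cdh4, Csf2ra, Epas1, Fads3, Gprc5a, Nav3, Npepl1, Nusap1, P3h4 and Srebf1, and Epas1 alone passed against the 4 female lines. Cdh4 entered these tests only through its level in the female line, so its passing adds no support. A description without a test gives a like picture. The female line's mean lay above all 8 line means for 20.9% of the genes tested in the pair and below all 8 for 19.3%, whereas the male line's mean lay above for 11.6% and below for 13.6%.

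Several genes were all but silent in the 9 other lines and expressed in the female line. Epas1, which encodes a hypoxia-inducible transcription factor subunit (chromosome 17, 86753700 to 86833410, GRCm38), was at 50.3, 61.9 and 44.99 CPM in female libraries, 0.925, 0 and 0.299 CPM in male libraries and 0.257 to 1.31 CPM in the other 8 line means. No library outside the female line came near it, and it rose by 6.34 on the log2 scale against the 8 lines (edgeR adjusted p 0.00135). Cdh4, the gene of R-cadherin (chromosome 2, 179442431 to 179899373), was at 18.2, 18 and 18.9 CPM in the female line and 0 in each library of the male line, and at 0 to 0.127 CPM in the other line means. Against a floor of 3 counts over the male libraries, it was at least 109-fold higher in the female line. Epas1 and Cdh4 passed the filter of the pair only through the female line, so that they had to differ there. Cdh4 passed the filter of the test against the 8 lines in the same way.

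Fmod encodes fibromodulin, a small proteoglycan that binds collagen (chromosome 1, 134037254 to 134048277). It was at 272, 272 and 285 CPM in the female line, at 1.85, 2.12 and 1.34 CPM in the male line and at 1.38 to 26.5 CPM in the other line means, a log2 difference within the pair of 7.28 ± 0.38 (SE; edgeR adjusted p 3.59e-17). Csdc2, which encodes a cold-shock domain protein that binds RNA (chromosome 15, 81936759 to 81950941), was at 259, 209 and 198 CPM in female libraries, 5.55, 5.31 and 7.32 CPM in male libraries and 2.93 to 25.7 CPM in the other line means. For both genes the female libraries lay far above every other line and the male line lay within or near their range. Cst3, the gene of cystatin C, a secreted inhibitor of cathepsins (chromosome 2, 148871722 to 148875692), was among the most abundant, at 5080.2, 5308 and 4919 CPM in the female line, at 755, 747 and 709 CPM in the male line and at 812 to 2194 CPM in the others. It rose within the pair by 2.79 ± 0.13 (SE; edgeR adjusted p 3.11e-19) and against the 8 lines by 2.09 (adjusted p 0.0322).

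Other genes that rose in the female line against the 8 lines encode a transporter, a pump subunit and a receptor. Slc2a3, a glucose transporter gene typical of neurons, was at 31.6, 31.1 and 29.3 CPM in female libraries, 3.14, 2.299 and 2.24 CPM in male libraries and 0.439 to 5.02 CPM in the other line means. Atp1b1, a subunit of the sodium pump, was at 39.8, 50.97 and 48.6 CPM in the female line, at 4.25, 4.24 and 4.03 CPM in the male line and at 2.43 to 12.2 CPM in the others. Csf2ra, the receptor chain that binds GM-CSF, was at 17.6, 21.2 and 19.3 CPM in female libraries, 2.59, 3.89 and 1.79 CPM in male libraries and 2.17 to 3.96 CPM in the other line means. The log2 differences of these 3 genes in the female line from the 8 lines were 4.13, 2.72 and 2.71 (edgeR adjusted p 0.0388, 0.0322 and 0.00599). Pcp4l1 had 38.99, 22.2 and 53.1 CPM in the female line and 3 counts in the male line, a ratio of 226 with a 95% counting interval of 77.05 to 1098. Reep2, of a family that shapes the endoplasmic reticulum, was at 36.7, 48.2 and 21.6 CPM in female libraries and 2.22, 0.531 and 1.49 CPM in male libraries.

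Genes that fell in the female line included several that the male line and the other 8 lines all expressed. Npepl1, an aminopeptidase gene (chromosome 2, 174110349 to 174123070), was at 0.385, 1.44 and 0.857 CPM in the female line, at 26.5, 19.8 and 29.4 CPM in the male line and at 13.4 to 23.3 CPM in the others. Nav3, whose product binds microtubule ends (chromosome 10, 109681259 to 110456204), was at 0, 0.576 and 0 CPM in female libraries, 6.105, 13.3 and 11.3 CPM in male libraries and 5.04 to 8.07 CPM in the other line means. Against the 8 lines these genes fell by 4.41 and 5.04 on the log2 scale, at edgeR adjusted p of 0.00223 and 0.00223. Gprc5a, a receptor gene induced by retinoic acid, was at 1.03, 0.864 and 0.857 CPM across the female line against 12.6, 9.73 and 7.76 CPM across the male line. For each of these 3 genes all 8 other line means exceeded every female library. The male means of Npepl1 and Nav3, at 25.2 and 10.2 CPM, lay above all 8 other line means.

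Some of the genes that fell have roles in neural development or signalling. Nr2f1, a nuclear receptor that patterns the cortex, averaged 0.9798 ± 0.524 CPM in the female line, 12.01 ± 3.76 CPM in the male line (SD, n = 3 each) and 10.1 to 36.3 CPM in the others. Nrn1, the gene of neuritin, averaged 0.696 ± 0.265 CPM for the female line and 15.4 ± 2.07 CPM for the male line (SD, n = 3 each). Lpar1, a receptor for lysophosphatidic acid, averaged 0.812 ± 0.706 CPM in the female and 21.2 ± 3.22 CPM in the male line (SD, n = 3 each). These 3 genes fell against the 8 lines at edgeR adjusted p of 0.0391, 0.0404 and 0.0341. The kinase gene Cdk18, the long noncoding RNA gene Snhg18, the collagen-modifying P3h4 and Fam110c fell as well, with log2 differences from the 8 lines of -3.99, -4.56, -2.32 and -5.43. With 0 male-line genes past the threshold, the levels of the male line for the genes above were described only, and the log2 differences of the male line from the 8 lines were 0.46 for Npepl1, 0.75 for Nav3 and -0.85 for Nr2f1.

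**Figure D2:**
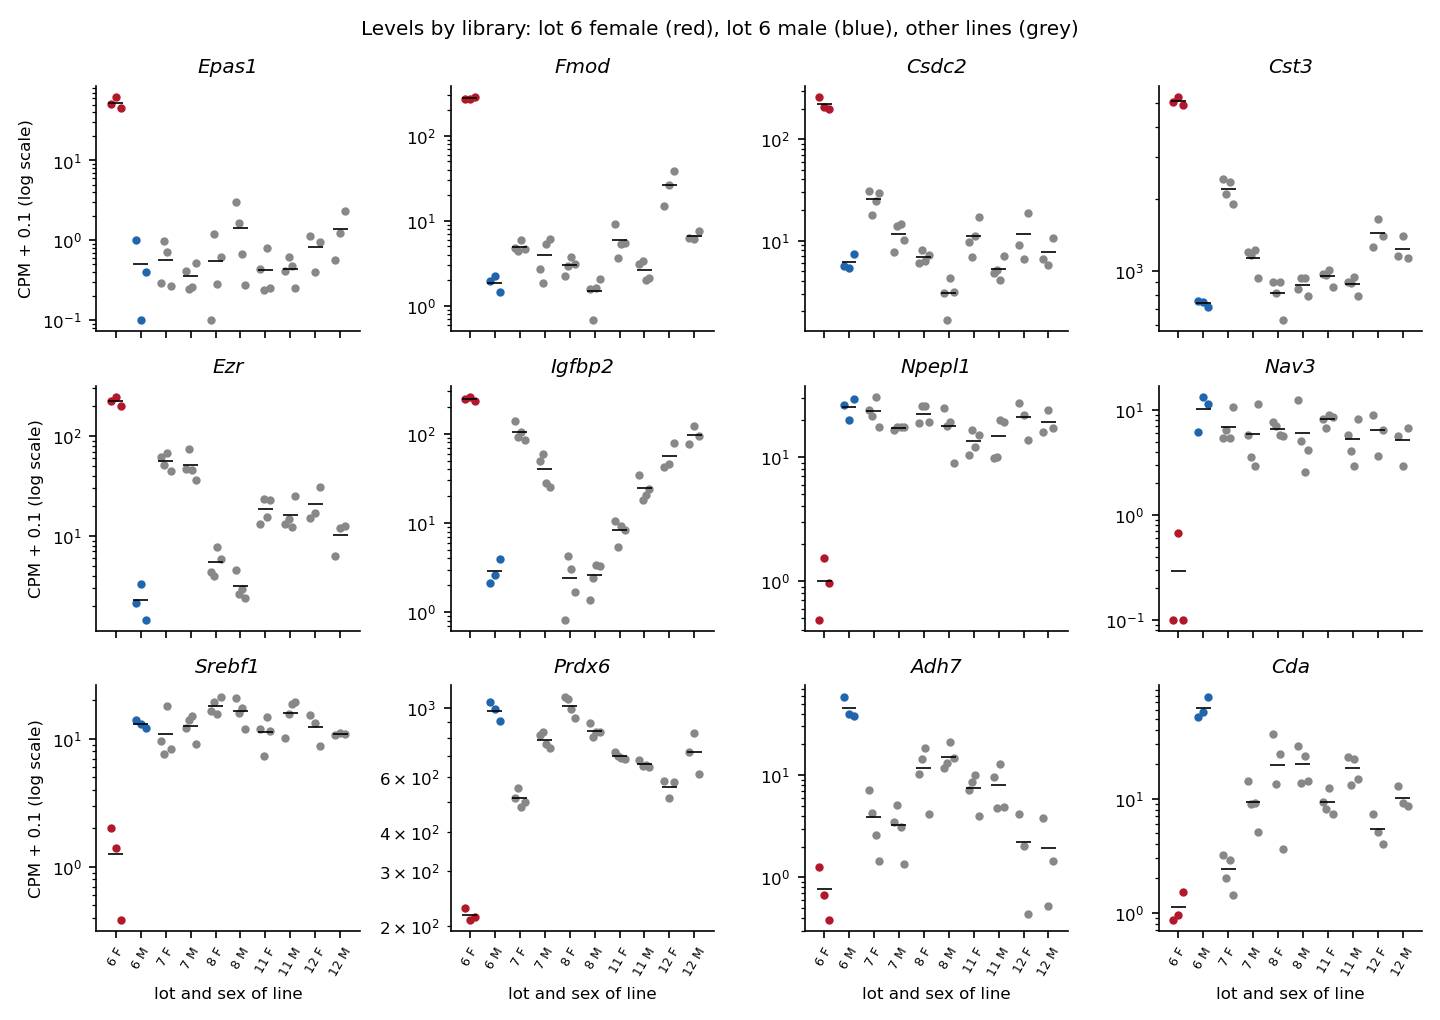
Each panel plots 1 gene as CPM on a log axis, with a point per library, for the lot 6 female and male lines and the other 8 lines. A constant of 0.1 is added to each value and lines mark the means, and the female libraries lie outside the range of the other line means in each of the 12 panels, while the male line lies opposite them, beyond the other line means, for Ezr, Cst3, Npepl1, Nav3, Adh7 and Cda.

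Other genes separated the pair because the 2 lines lay on opposite sides of the rest, or because the male line alone lay outside it. Adh7, a retinol and alcohol dehydrogenase gene, was at 1.15, 0.576 and 0.286 CPM in the female line, at 58.6, 39.4 and 37.9 CPM in the male line and at 1.83 to 15.1 CPM in the other line means. It fell within the pair by 6.01 (edgeR adjusted p 1.73e-08), while the log2 difference from the 8 lines was -3.24 for the female line and 2.78 for the male line, neither of which passed. Crabp1, a carrier of retinoic acid inside cells, was at 87.7, 115 and 81.3 CPM in female libraries, 3004, 3449.6 and 2552 CPM in male libraries and 291 to 1884 CPM in the other line means. Each female library was below and each male library above all 8 line means, and the pair differed by -4.99 ± 0.31 (SE; adjusted p 2.27e-15). Artn, which encodes the neurotrophic factor artemin, was at 2.69, 1.58 and 1 CPM in the female line, at 24.98, 31.5 and 22.1 CPM in the male line and at 0.245 to 11.98 CPM in the others, so that the male libraries lay above all 8 line means and the female libraries among them.

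For a further set the other lines covered most of the gap between the 2 lines, and neither line passed against them. Ano1, a calcium-activated chloride channel gene, had 3 counts in the female line and 17.02, 22.1 and 27.8 CPM in the male line, a ratio of 0.00608 (95% counting interval 0.00125 to 0.0179), and 0.714 to 42.6 CPM in the others. Osr1, a zinc finger factor of the intermediate mesoderm, was at 0.7696, 0.144 and 0.143 CPM in female libraries, 36.1, 40.5 and 40.9 CPM in male libraries and 1.43 to 49.2 CPM in the other line means. Cyp1b1, a cytochrome P450 gene, and Efemp1, a matrix protein gene of the fibulin family, behaved likewise. Cyp1b1 averaged 0.224 ± 0.2001 CPM for the female line and 32.97 ± 10.3 CPM for the male line, and Efemp1 averaged 5.86 ± 2.54 CPM for the female line and 211 ± 10.04 CPM for the male line (SD, n = 3 each). In the other direction, Mest, an imprinted gene whose active copy is the paternal one, was at 43.9, 46.9 and 39.99 CPM in the female line, at 1.11, 1.06 and 0.448 CPM in the male line and at 0.574 to 23.3 CPM in the others. Col11a1, a fibrillar collagen gene, had 11.2, 11.1 and 8.43 CPM in the female line and 3 counts in the male line, a ratio of 60.7 (95% counting interval 20.5 to 297). The other line means of Col11a1, at 1.85 to 31.7 CPM, held all the female values and lay above all the male values.

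The next comparison asked which genes differed in lot 6 in another way than in the other litters. The female minus male difference of lot 6, less the mean of that difference in the other 4 lots, passed for 8 genes above 0 (0.0574% of 13947) and 23 below 0 (0.165%), by edgeR's quasi-likelihood test on line sums with 3 residual degrees of freedom. Npepl1 differed by -4.81 within lot 6 and by -0.123 to 0.438 in the other lots. Tgm2, a transglutaminase gene that crosslinks proteins, was at 1.67, 1.73 and 1 CPM in the lot 6 female line and 29.2, 26.7 and 41.1 CPM in the male line, and its difference of -4.44 stood against -0.321 to 0.751 elsewhere. Cd34, a sialomucin gene of progenitor and endothelial cells, was at 314, 267 and 292 CPM in female libraries and 34.6, 36.6 and 27.03 CPM in male libraries, a difference of 3.15 against -0.532 to 0.0453 in the other lots. The count of 31 was 128 without lot 7 but 4 without lot 11, 8 without lot 8 and 8 without lot 12, and 8 with library totals as scaling.

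Gene groups were then described by their tested members, each beside 13.5% higher and 14.2% lower over all genes and a median log2 difference of 0.06 over all genes. The lists were chosen with earlier results of these data known, so their counts are descriptions.

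Interferon-stimulated genes, whose products block viral replication and are read out as a sign of interferon signalling, were higher in the female line. Of 49 listed, 32 were tested, 19 rose and 2 fell, with a median log2 difference of 1.72 in the pair, 1.46 for the female line against the 8 lines and -0.62 for the male line. The female mean lay above all 8 line means for 20 of the 32. However, 7 members passed the filter only through the female line, and of the other 25, 12 rose and 2 fell. The medians and the count of 20 include those 7 members. Summed over the list, the female line had 2796 CPM, the male line 655 CPM and the other lines 170.3 to 605 CPM, and most of the sum in both lot 6 lines was Ifitm3. The male line's sum thus lay above the other lines although its median difference was below 0.

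Ifitm3, a membrane protein gene that keeps enveloped viruses from entering, was at 2314, 2754 and 2007 CPM in female libraries, 461, 434 and 426 CPM in male libraries and 28.2 to 393 CPM in the other line means. The male libraries also lay above all 8 line means. Ifitm3 rose within the pair by 2.42 ± 0.26 (SE; edgeR adjusted p 2.29e-09), and its log2 difference from the 8 lines of 3.81 had an adjusted p of 0.0536. It shares much of its sequence with the other Ifitm genes, so that reads may be split among them. Irgm1, an interferon-induced GTPase gene, was at 19.6, 28.8 and 16.3 CPM in the 3 female libraries and 8.69, 6.72 and 6.42 CPM in the 3 male ones. Tmem173, which encodes the DNA-sensing adaptor STING, was at 16.03, 13.5 and 7.28 CPM in the female line, at 0, 1.06 and 0.747 CPM in the male line and at 0.141 to 6.56 CPM in the others, a rise of 4.28.

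One library carried much of the count. Among the 32 members, 26 were highest in female replicate 2 of the 3 female libraries. Without Ifitm2 and Ifitm3, the list came to 304, 546 and 287 CPM for the female line and to 167, 187 and 202.5 CPM for the male line. Ifit1, an antiviral gene, was also highest in female replicate 2, at 2.18, 10.7 and 2.14 CPM in female libraries and 0.74, 0 and 0 CPM in male libraries. Igtp, an interferon-induced GTPase gene, was more even, at 3.33, 4.32 and 3.86 CPM in the female line and 0 in each library of the male line. Ifit1 and Igtp were chosen after their values were seen. Without female replicate 2, 10 of 32 members rose and 2 fell. When any other lot 6 library was left out, 13 to 19 rose, so the number called rests in part on female replicate 2. The list's median without it was 1.61, over members that include the 7 tested only through the female line.

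The promoters of these genes were searched for the core of the interferon-stimulated response element (ISRE), the site through which type I interferons induce their target genes. The letters searched were GAAANNGAAA on either strand, in the 250 bases before and 50 after each RefSeq start (GRCm38.p6). At least 1 promoter held them in 3.99% of all 27018 genes and in 53.8% of the 26 tested list members with a promoter sequence. Of 15 members that rose and had a promoter, 11 held it, where 14 of all 26 did. Members that passed the filter only through the female line, Isg15 among them, were not taken out. The element is common in the list itself, so its share describes the list and not these 2 lines. A match describes the letters and does not show that a factor bound there. The promoters of Ifitm3, the most abundant member, and of Ifit3 and Isg15, antiviral genes that rose by 4.36 and 5.81, are shown to let the matches be read in place, with the matches in capitals.
Ifitm3, chr7:141010695-141010994, minus strand: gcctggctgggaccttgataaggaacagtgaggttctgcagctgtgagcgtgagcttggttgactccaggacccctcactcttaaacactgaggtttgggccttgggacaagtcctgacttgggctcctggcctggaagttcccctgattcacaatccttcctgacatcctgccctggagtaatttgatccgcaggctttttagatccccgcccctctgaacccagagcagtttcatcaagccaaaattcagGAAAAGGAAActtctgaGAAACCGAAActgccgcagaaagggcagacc
Isg15, chr4:156200769-156201068, minus strand: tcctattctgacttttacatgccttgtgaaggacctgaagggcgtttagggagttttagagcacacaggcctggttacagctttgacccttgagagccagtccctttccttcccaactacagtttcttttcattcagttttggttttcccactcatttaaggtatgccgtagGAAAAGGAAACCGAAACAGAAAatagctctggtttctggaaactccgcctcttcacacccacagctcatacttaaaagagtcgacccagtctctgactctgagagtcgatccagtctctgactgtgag
Ifit3, chr19:34583279-34583578, plus strand: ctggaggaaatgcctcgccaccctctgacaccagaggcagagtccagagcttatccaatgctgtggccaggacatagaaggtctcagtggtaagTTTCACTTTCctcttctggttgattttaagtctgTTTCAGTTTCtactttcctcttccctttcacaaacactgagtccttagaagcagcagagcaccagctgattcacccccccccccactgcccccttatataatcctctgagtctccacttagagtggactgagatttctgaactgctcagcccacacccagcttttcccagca
The Ifitm3 and Ifit3 promoters held 2 matches each, and that of Isg15 held 3 that overlap. Isg15 passed the filter of the pair only through the female line, and near-identical copies such as Ifit3 and Ifit3b cannot be separated with certainty by short 3′ reads.

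Genes that act next to the interferon list moved in part. Of 17 tested genes of MHC class I presentation, 6 rose and 3 fell. Without 2 members that passed the filter only through the female line, 5 of 15 rose and 3 fell. Tapbp, which loads peptides onto MHC class I, averaged 58.2 ± 6.196 CPM for the female line and 22.8 ± 6.91 CPM for the male line (SD, n = 3 each), while the proteasome activators Psme1 and Psme2, both on chromosome 14, fell by 1.27 and 0.87. Of 30 tested components of NF-kB and STAT3 signalling, 11 rose and 0 fell, or 10 and 0 of 29 without the 1 tested only through the female line. Stat3 averaged 20.3 ± 4.35 CPM in the female and 6.401 ± 2.63 CPM in the male line, and Il1rap, a chain of the interleukin-1 receptor, 10.8 ± 1.33 CPM for the female line and 2.78 ± 0.658 CPM for the male line (SD, n = 3 each). Among NF-kB targets 5 rose and 4 fell of 24 tested, or 4 and 4 of 23 without the 1 tested only through the female line. Cx3cl1, a membrane-bound chemokine gene, rose by 1.83, whereas Vcam1, a leukocyte adhesion gene, was at 8.08, 9.65 and 7.71 CPM in female libraries, 26.3, 37.8 and 34.04 CPM in male libraries and 26.1 to 70.4 CPM in the other line means and also fell against the 8 lines (adjusted p 0.0365).

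Contractile genes, which build the actin and myosin apparatus of smooth muscle and myofibroblasts, rose in 10 of 21 tested members and fell in 0. Their median log2 difference was 0.84 in the pair, 0.74 for the female line against the 8 lines and -0.13 for the male line, and the female mean lay above all 8 lines for 9 of them. Cnn1, the gene of calponin, was at 1581, 1448 and 1370.5 CPM in the female line, at 31.1, 55.2 and 22.4 CPM in the male line and at 10.6 to 145 CPM in the others, a rise of 5.34 ± 0.50 (SE; edgeR adjusted p 8.04e-11). Myl9, a myosin light chain gene, was at 3368, 3433 and 3030.4 CPM in female libraries, 159.8, 178 and 330.1 CPM in male libraries and 48.9 to 1276 CPM in the other line means. Acta2, smooth muscle actin, was at 15909, 14505 and 13966 CPM in the 3 female libraries and 4212, 4719.6 and 5595 CPM in the 3 male ones, and Cald1, which binds both actin and myosin, was at 5479.5 ± 645 CPM in the female and 2336 ± 432 CPM in the male line (SD, n = 3 each). None of these 4 genes passed against the 8 lines on its own. Beside them, 11 markers of pericytes and smooth muscle, Acta2 and Cnn1 among them, summed to 16280.0 CPM in the female line, 4895 CPM in the male line and 1361.5 to 11093 CPM in the others. Among these markers Des, Notch3, Abcc9, Kcnj8 and Anpep had no count in lot 6, and their part in the result was not tested. The CArG box, the site of serum response factor, was found in a promoter of 4 of 20 tested members (20%) and of 1.81% of all genes. Of the 9 members that rose and had a promoter, 1 held it, Myl9.

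Lists of adhesion and matrix genes differed among themselves. Of 15 tested integrins with Cd44, 6 rose and 1 fell. Itga1, the alpha chain of a collagen receptor, had 39.4, 58.03 and 39.4 CPM in the female line and 2 counts in the male line, a ratio of 403 (95% counting interval 111 to 3329). Itgb1, the shared beta chain, averaged 654 ± 97.3 CPM for the female line and 236 ± 53.9 CPM for the male line (SD, n = 3 each), whereas Itga6, a laminin receptor chain, was the member that fell, at 10.9 ± 1.63 CPM in the female and 52.6 ± 12.8 CPM in the male line. Of 22 tested matricellular proteins and proteoglycans, 12 rose and 3 fell, and 8 rose without male replicate 2. Tnc, the gene of tenascin-C, was at 53.2, 52.8 and 47.4 CPM across the female line against 5.92, 12.4 and 10.2 CPM across the male line, and Fbln2, a fibulin gene, ran the other way at 8.98, 15.6 and 7.71 CPM in female libraries and 132, 128 and 126 CPM in male libraries. Of 14 tested basement membrane genes, 6 rose and 2 fell. Of 20 tested fibrillar collagens and lysyl oxidases, 7 rose and 5 fell, with a median of -0.02 that turned positive with library totals as scaling. Metalloproteinases and their inhibitors were even, with 4 of 18 tested higher and 4 lower, as were genes that respond to YAP, a sensor of cell tension, with 5 of 20 higher and 5 lower. Mmp3, a matrix metalloproteinase gene, had 22.4, 46.4 and 50.8 CPM in the female line and 3 counts in the male line, a ratio of 232 (95% counting interval 79.2 to 1128). Loxl2, which crosslinks collagen, rose by 3.49, and Mmp14, a membrane-bound metalloproteinase gene, fell by 1.47, and both lie on chromosome 14. Meningeal and fibroblast markers, 15 in all and led by Col1a1 and Col1a2, summed to 59.95 CPM in the female line, 695 CPM in the male line and 45.8 to 745 CPM in the others, and their part in these differences was not tested.

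Transcription factors and cadherins of the mesenchymal transition split. Snai1 was at 1.03, 1.01 and 0.428 CPM in the female line, at 7.95, 7.43 and 9.41 CPM in the male line and at 4.74 to 8.88 CPM in the others, and fell both within the pair and against the 8 lines (edgeR adjusted p 6.07e-08 and 0.0279), although its relative Snai2 rose within the pair by 3.35. Cdh2, N-cadherin, was at 80.7, 74.4 and 68.6 CPM in the 3 female libraries and 28.9, 26 and 33.9 CPM in the 3 male ones. Cdh11, a cadherin of mesenchyme, had 4.87, 8.35 and 8.86 CPM in the female line and 2 counts in the male line, a ratio of 64.5 (95% counting interval 17.6 to 537). Of 7 tested connexins, pannexins and aquaporins, 5 fell and 0 rose, with a median log2 difference of -1.86. Gja1, the main astrocyte connexin, was at 83.9, 77.03 and 65.8 CPM in female libraries, 207, 175 and 268 CPM in male libraries and 83.4 to 184 CPM in the other line means. The water channel gene Aqp5 averaged 5.52 ± 1.61 CPM in the female and 31.01 ± 4.501 CPM in the male line (SD, n = 3 each).

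**Figure D3:**
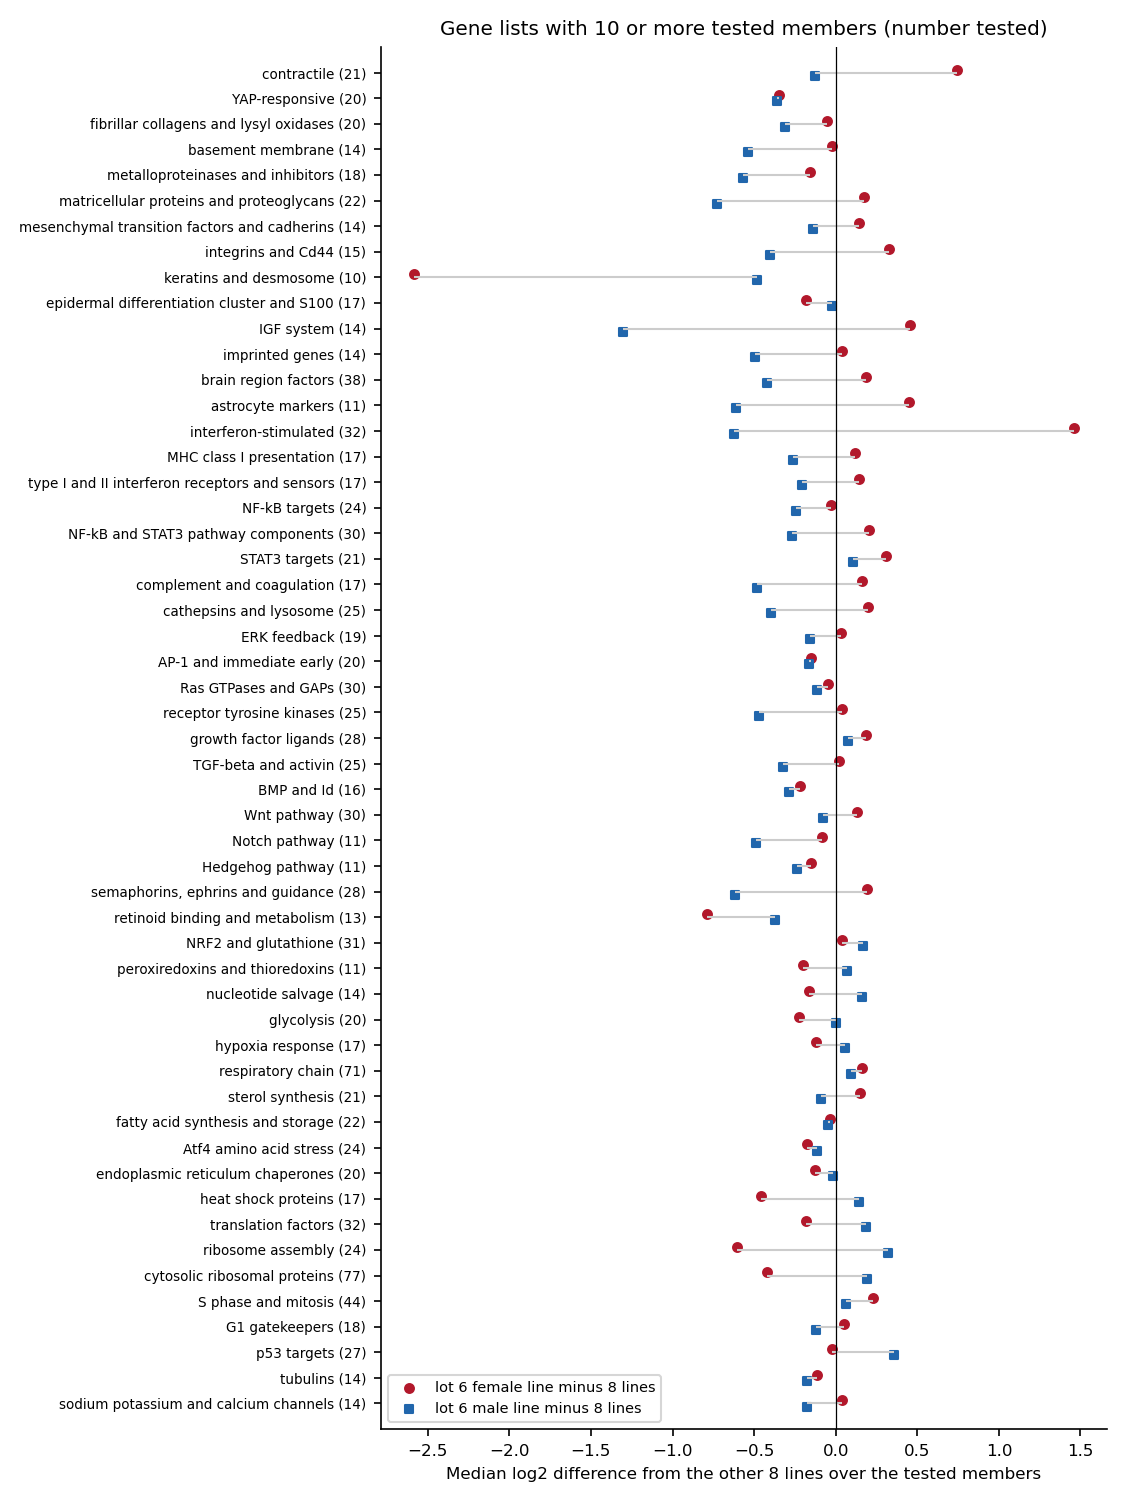
Points give the median log2 difference from the other 8 lines over the tested members of each gene list (number tested in brackets), for the lot 6 female and male lines. Interferon-stimulated genes lie at 1.46 for the female and -0.62 for the male line, contractile genes at 0.74 for the female and -0.13 for the male line, and cytosolic ribosomal proteins at -0.42 for the female and 0.19 for the male line. The interferon medians include 7 members that passed the filter of the pair only through the female line.

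Of 14 tested genes of the insulin-like growth factor (IGF) system, 8 rose and 1 fell, with a median log2 difference of 1.47, and the median difference from the 8 lines was 0.45 for the female line and -1.30 for the male line. Igf1, the ligand, was at 25.4, 17.3 and 20.9 CPM in the female line, at 1.29, 0.707 and 0.896 CPM in the male line and at 0.422 to 46.7 CPM in the others. Htra1, a protease that cleaves IGF-binding proteins, was at 65.7, 60.3 and 64.3 CPM across the female line against 5.92, 4.42 and 4.03 CPM across the male line, and Igfbp7, a binding protein, averaged 34.3 ± 7.87 CPM for the female line and 9.56 ± 2.37 CPM for the male line (SD, n = 3 each). The other lines covered the levels of both lot 6 lines for Igf1, so neither was outside them. Pappa, which frees IGF from a binding protein, had 0.513, 7.92 and 5.28 CPM in the female line and 1 count in the male line, a ratio of 78.4 (95% counting interval 13.7 to 3129).

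Of 28 tested growth factor ligands, 7 rose and 8 fell. Gas6, the ligand of the Axl, Tyro3 and Mertk receptors, was at 63.7, 66.2 and 61.8 CPM in female libraries, 0.925, 0.531 and 1.19 CPM in male libraries and 0.236 to 11.1 CPM in the other line means, a rise of 6.13 ± 0.42 (SE; edgeR adjusted p 3.599e-14). Ptn, the gene of pleiotrophin, averaged 20.2 ± 2.45 CPM in the female and 0.537 ± 0.355 CPM in the male line (SD, n = 3 each). Areg and Ereg, which encode ligands of the EGF receptor, were among those that fell. Areg was at 19.9, 11.95 and 12.1 CPM in female libraries and 103, 111 and 100.04 CPM in male libraries, and Ereg averaged 8.15 ± 1.9 CPM for the female line and 28.6 ± 10.8 CPM for the male line (SD, n = 3 each). Of 25 tested receptor tyrosine kinases, 6 rose, including Fgfr1 by 1.67 and Ddr1 by 1.5, and 3 fell. Of 25 tested members of the TGF-beta and activin list, 7 rose and 1 fell. Fst, the gene of the activin antagonist follistatin, was the one that fell, at 7.05, 5.62 and 6.43 CPM in the 3 female libraries and 43.8, 54.5 and 64.2 CPM in the 3 male ones, and Fstl1, a follistatin-like gene, rose by 1.49. The ligand genes Tgfb2 and Tgfb3 rose by 0.97 and 1.19.

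Transcription factors that mark regions of the developing brain were more often higher in the female line, in 13 of 38 tested members against 5 lower. Their median log2 difference was 1.15, or 0.99 with genes absent from a line set to their bound. The female mean lay above all 8 line means for 15 members, and 2 members passed the filter only through the female line. Of the other 36, 12 rose and 5 fell. Zic4, a zinc finger factor of the dorsal neural tube and cerebellum, was at 40.1, 42.3 and 35.4 CPM in the female line, at 0.74, 0 and 0 CPM in the male line and at 0.0596 to 3.76 CPM in the others, and rose against the 8 lines by 5.69 (edgeR adjusted p 0.0349). Its neighbour Zic1 had 11.8, 16.6 and 11.3 CPM in the female line and 0 in each library of the male line, at least 77.9-fold higher against a floor of 3 counts. The 2 genes stand side by side on chromosome 9.

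Other members that rose within the pair included Dlx1, Pax6, Otx1 and Lhx2. Dlx1, a factor of the ventral forebrain, was at 16.2, 15.98 and 12.4 CPM in female libraries, 2.77, 1.77 and 3.14 CPM in male libraries and 2.26 to 4.49 CPM in the other line means, and passed against the 8 lines (edgeR adjusted p 0.0142). Pax6, of the dorsal forebrain and eye, was at 38.2, 31.8 and 39.3 CPM across the female line against 5.55, 4.07 and 3.58 CPM across the male line. Otx1 was at 16.03, 29.8 and 21.6 CPM in female libraries and 1.67, 0.884 and 3.14 CPM in male libraries, and Lhx2, a selector of the cortex, was at 19.1, 22.03 and 19.4 CPM in the 3 female libraries and 3.88, 6.37 and 4.33 CPM in the 3 male ones. The other line means ranged from 0.192 to 31.3 CPM for Pax6, from 1.16 to 20.1 CPM for Otx1 and from 1.38 to 12.1 CPM for Lhx2. The female means lay above all 8, and none of the 3 passed against the 8 lines. The highest of the 8 was each time lot 7 female, the line nearest to the lot 6 female line. For Pax6 and Otx1 it came close, and female replicate 1 lay below it for Otx1. Of 39 Hox genes, which mark the hindbrain and spinal cord, 1 was tested, Hoxa7, and it did not pass.

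**Figure D4:**
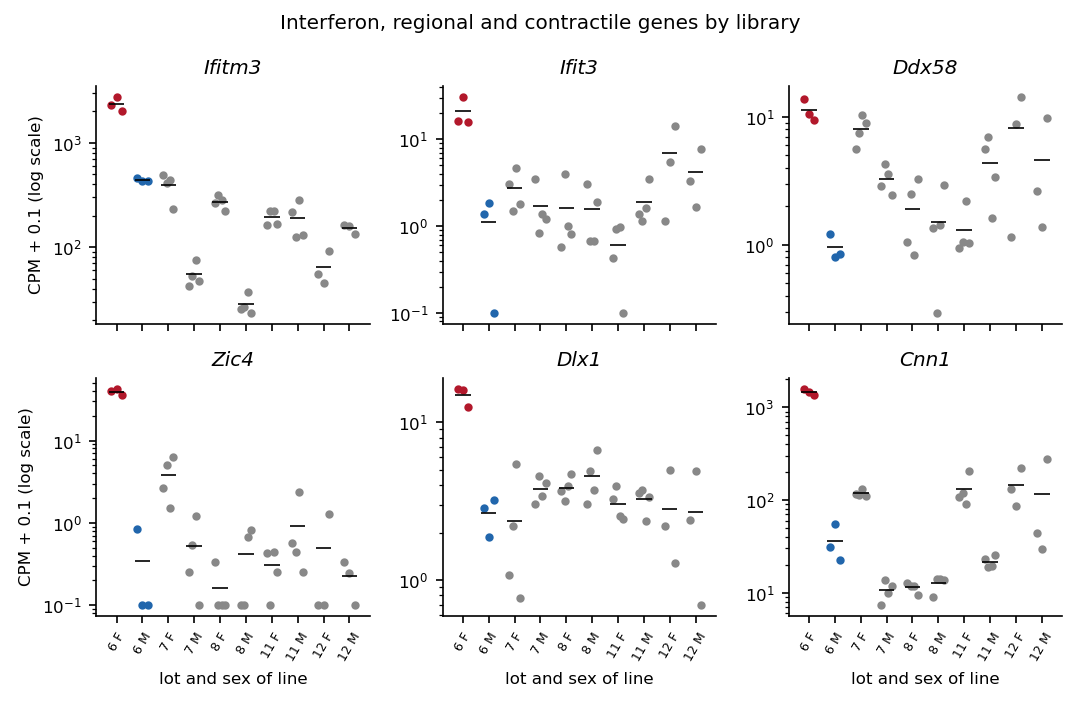
Each panel plots 1 gene of the interferon, regional or contractile lists as CPM on a log axis, with a point per library, for the lot 6 female and male lines and the other 8 lines. A constant of 0.1 is added to each value and lines mark the means. Ifit3 is highest in female replicate 2, Zic4 is at 40.1, 42.3 and 35.4 CPM in female libraries and at 0.0596 to 3.76 CPM in the 8 line means, and Cnn1 is at 1581, 1448 and 1370.5 CPM in female libraries and at 10.6 to 145 CPM in the 8 line means.

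Among the astrocyte markers, 11 were tested, 4 rose and 1 fell. Apoe, the lipid carrier of the brain, was at 489, 529 and 627 CPM in the female line, at 13.5, 9.02 and 14.9 CPM in the male line and at 4.93 to 175 CPM in the others, a rise of 5.45 ± 0.75 (SE; edgeR adjusted p 3.88e-07). Slc1a3, a glutamate transporter gene, was at 8.85, 15.8 and 2.14 CPM across the female line against 0, 0.707 and 0.747 CPM across the male line, and Clu, a secreted chaperone gene on chromosome 14, was at 44.3, 46.7 and 36.3 CPM in female libraries and 8.32, 7.43 and 4.48 CPM in male libraries. The female libraries were spread widely for Slc1a3 but stayed above the male libraries. Gja1 was the marker that fell. Fabp7, a lipid carrier of radial glia, had a mean of 3.48 ± 2.32 CPM in the female line (SD, n = 3) and 0 in each library of the male line, and Hes1, a Notch target, rose by 1.35.

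Among axon guidance genes, 7 of 28 tested rose and 2 fell. Sema3e, a repulsive ligand of plexin D1, was at 60.5, 71.6 and 68.4 CPM in female libraries, 0.185, 1.41 and 0.149 CPM in male libraries and 0.289 to 4.79 CPM in the other line means, and rose against the 8 lines by 5.13 (edgeR adjusted p 0.0322). Its receptor gene Plxnd1 rose within the pair by 2.53, with female libraries at 5.64, 3.46 and 1.57 CPM and male libraries at 0, 0.707 and 1.05 CPM. Nrp2, a co-receptor of other semaphorins, was at 4.62, 5.33 and 8.998 CPM in the female line, at 28.5, 23.3 and 24.3 CPM in the male line and at 17.1 to 31.4 CPM in the others, and fell against the 8 lines (adjusted p 0.0305).

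Keratins and desmosome genes, which tie epithelial cells together, had the lowest median among lists with 10 or more tested members in the female line against the 8 lines, at -2.58, with -0.48 in the male line, but that median rests on genes absent from the female line. Krt7, Krt8 and Krt18 had no count there, and their fitted values are no measure of size. Of 10 tested members, 2 rose and 2 fell within the pair. Krt19, a keratin gene of simple epithelia, averaged 1.42 ± 0.263 CPM in the female and 5.73 ± 0.645 CPM in the male line (SD, n = 3 each) and 1.95 to 66.02 CPM in the others, and fell by 1.99. Pkp2, a desmosome plaque gene, rose by 1.08, at 19.4, 11.8 and 16.1 CPM in the 3 female libraries and 9.99, 7.07 and 5.38 CPM in the 3 male ones.

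Of 13 tested genes that bind or convert retinoids, 3 fell and 1 rose. Besides Crabp1, Aldh1a3, which makes retinoic acid, fell by 3.93, at 0.257, 0.576 and 0.143 CPM across the female line against 3.51, 5.66 and 6.42 CPM across the male line, and the retinoic acid receptor gene Rarg fell by 0.88. Dhrs3, which turns retinal back into retinol, was the one that rose, at 27.6, 37.7 and 30.1 CPM in female libraries, 0.185, 0.177 and 1.79 CPM in male libraries and 0.285 to 22.5 CPM in the other line means.

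Of 17 tested complement and coagulation genes, 8 rose and 1 fell. F3, the gene of tissue factor, which starts coagulation, was at 285, 227 and 225 CPM in the female line, at 22.02, 27.8 and 30.2 CPM in the male line and at 21.7 to 256 CPM in the others. Plat, tissue plasminogen activator, was at 33.5, 42.3 and 31.9 CPM in female libraries and 7.77, 5.84 and 5.67 CPM in male libraries, and Anxa2, which binds it at the cell surface, was the one that fell, by 0.84. F3 stood near the top of the other lines in the female line and near their bottom in the male line.

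Of 77 tested cytosolic ribosomal protein genes on autosomes, 74 fell and 0 rose, with a median log2 difference of -0.61 in the pair, -0.42 for the female line against the 8 lines and 0.19 for the male line. The female mean was below all 8 line means for 54 of them and the male mean above all 8 for 22. A wider set, protein-coding genes with Rpl or Rps symbols on any chromosome, held 17.6 to 19.9% of the counts of a female library. It held 23.4 to 27.2% of a male library and 18.9 to 26.9% of the other libraries. Rps24, of the small subunit, was at 1661, 1428 and 1449.6 CPM in female libraries, 4036, 4070.4 and 3332 CPM in male libraries and 2881 to 3944 CPM in the other line means, and passed against the 8 lines (edgeR adjusted p 0.0349). Processed copies of ribosomal protein genes can take part of their reads, which makes single members less certain than the list.

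Of 24 tested assembly factors, 21 fell and 0 rose, with a median of -0.77. Npm1, the nucleolar chaperone nucleophosmin, was at 744, 682 and 809 CPM in the female line, at 2192, 2275 and 2170.1 CPM in the male line and at 1174 to 2427 CPM in the others. Gnl3, a nucleolar GTPase gene, was at 73.5, 58.03 and 64.7 CPM in female libraries, 219, 231 and 227 CPM in male libraries and 138 to 207 CPM in the other line means, and passed against the 8 lines (edgeR adjusted p 0.03699). Of 32 translation factors, 18 fell and 0 rose, with a median of -0.38. Tpt1, a growth-responsive member of the translation list, was at 894, 845 and 844 CPM in the female line, at 2693, 2729.5 and 2461 CPM in the male line and at 1776 to 2522 CPM in the others, and fell against the 8 lines (adjusted p 0.0349). Myc, a driver of ribosome production, was at 47.7, 41.2 and 43.99 CPM in the 3 female libraries and 68.4, 56.9 and 74.8 CPM in the 3 male ones, a fall of 0.59.

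Of 17 tested heat shock genes, which encode chaperones, 11 fell and 1 rose, with a median of -0.57. Hsph1, a partner of Hsp70, was at 73.4, 58.6 and 62.1 CPM across the female line against 168, 159 and 168 CPM across the male line. Hspe1 and Hspd1, which together fold mitochondrial proteins, fell by 0.95 and 0.90. Hspb1, a small heat shock protein that binds actin, was the one that rose, at 328, 359.97 and 258 CPM in female libraries and 20.7, 59.6 and 32.8 CPM in male libraries. Of 71 tested genes of the respiratory chain, 19 rose and 10 fell, and the genes of smallest p that fell, Ndufa12, Uqcr11, Atp5b and Atp5d, all lie on chromosome 10.

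Lipid genes held some of the clearest departures. Srebf1, the transcription factor that drives fatty acid synthesis, was at 1.92, 1.296 and 0.286 CPM in female libraries, 13.9, 12.9 and 11.9 CPM in male libraries and 10.8 to 18.1 CPM in the other line means, and fell against the 8 lines by 3.49 on the log2 scale (edgeR adjusted p 0.00758). Fads3, of the fatty acid desaturase family, was at 4.75, 3.6 and 2.86 CPM in the female line, at 48.7, 56.6 and 52.4 CPM in the male line and at 32.7 to 67.5 CPM in the others (adjusted p 0.0162). Plin3, a coat protein of lipid droplets, was at 4.75, 11.2 and 5.28 CPM in female libraries, 32.2, 33.6 and 24.8 CPM in male libraries and 19.3 to 35.3 CPM in the other line means (adjusted p 0.0322). For all 3 every female library lay below every other line mean. The list as a whole was mixed, with 5 of 22 tested members higher and 5 lower. Mgll, a lipase of monoacylglycerols, was at 149, 147 and 139 CPM in the 3 female libraries and 8.88, 3.54 and 1.94 CPM in the 3 male ones, and of 21 tested sterol synthesis genes 4 rose and 1 fell.

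Among genes that defend against oxidants, Prdx6, a peroxiredoxin gene (chromosome 1, 161240112 to 161251219), was at 228, 209 and 214 CPM in the female line, at 1044, 993 and 906 CPM in the male line and at 513 to 1019 CPM in the others. It fell within the pair by 2.18 on the log2 scale (edgeR adjusted p 1.94e-19) and against the 8 lines by 1.75 (adjusted p 0.0492). Of 31 tested NRF2 and glutathione genes, 11 fell and 5 rose, with Gsta1, a glutathione transferase gene, averaging 0.796 ± 0.836 CPM for the female line and 20.7 ± 1.84 CPM for the male line (SD, n = 3 each). The metallothionein genes Mt1 and Mt2, which bind zinc and copper, fell by 2.84 and 1.89. Mt1 was at 68.4, 81.2 and 69.7 CPM across the female line against 489.7, 526 and 551 CPM across the male line. The zinc exporter gene Slc30a1 rose by 1.6. In nucleotide salvage 6 of 14 tested genes fell and 1 rose, and the median of that list, at -0.21, changed sign with library totals as scaling. Upp1, a uridine phosphorylase gene, was at 1.67, 2.74 and 3.14 CPM in female libraries and 55.7, 49.5 and 66.3 CPM in male libraries, while Ada, adenosine deaminase, was the one that rose, by 1.94.

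Of 17 tested hypoxia-responsive genes, 4 rose and 1 fell, but 3 passed the filter through the female line alone. Of the other 14, 2 rose and 1 fell, beside 13.5% and 14.2% over all genes. The sign of the list's median changed with library totals as scaling. Adm, the gene of the vasodilator adrenomedullin, was at 142, 158 and 166 CPM in female libraries, 2.77, 2.12 and 2.54 CPM in male libraries and 0.632 to 23.1 CPM in the other line means, a rise of 5.96 ± 0.33 (SE; edgeR adjusted p 2.17e-16). Ndrg1 rose by 1.73 and Bnip3l fell by 1.45. Of 20 tested glycolysis genes, 3 rose and 8 fell, and the sign of their median also changed with library totals. Eno3, the muscle enolase, was at 15.9, 19.01 and 9.43 CPM in the 3 female libraries and 136, 146 and 149 CPM in the 3 male ones, and Ldhb, a lactate dehydrogenase chain, was at 173, 235 and 176 CPM across the female line against 47.2, 51.8 and 62.7 CPM across the male line.

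Of 44 tested genes of S phase and mitosis, 8 rose and 2 fell, and 5 rose without female replicate 3. Nusap1, which bundles spindle microtubules, was at 132, 169 and 161 CPM in the female line, at 56.6, 56.8 and 64.7 CPM in the male line and at 56.8 to 79.1 CPM in the others, and Tpx2, which nucleates them, was at 256, 273 and 262 CPM in female libraries and 139, 120.3 and 179 CPM in male libraries. Both lie on chromosome 2 and passed against the 8 lines (edgeR adjusted p 0.00992 and 0.0345). Among inhibitors of G1 kinases, Cdkn2d was at 100.05, 126 and 133 CPM in female libraries, 35.5, 18.6 and 21.5 CPM in male libraries and 35 to 60.6 CPM in the other line means (adjusted p against the 8 lines 0.0322). Cdkn1a, the p21 gene that p53 induces, was at 29.9, 26.1 and 22.4 CPM in the female line, at 85.1, 84.01 and 78.99 CPM in the male line and at 6.49 to 56.04 CPM in the others, so that the male libraries lay above all 8 line means. Cdk4 and Cdk6 fell by 0.89 and 1.89.

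Oncofetal genes, which are active in embryos and many tumours, fell in 5 of 6 tested members, or in 3 without female replicate 2. Their median log2 difference was -1.96, or -1.67 with absent genes set to their bound. Hmga2, a chromatin protein gene on chromosome 10, was at 27.4, 23.6 and 19.3 CPM in the 3 female libraries and 106, 115 and 207 CPM in the 3 male ones, and Igf2bp3, an RNA-binding protein gene, was at 0.641, 0.288 and 1.14 CPM across the female line against 14.6, 12.2 and 13.6 CPM across the male line. Of 27 tested p53 targets, 1 rose and 7 fell, and off chromosomes 2, 10, 11 and 14 (chosen after seeing the data) 1 rose and 2 fell of 21. Of 25 tested genes of cathepsins and the lysosome, 10 rose and 5 fell. Ctsa averaged 182 ± 24.2 CPM in the female and 74.9 ± 7.19 CPM in the male line, and Ctsh, the member that fell most clearly, 8.28 ± 0.188 CPM for the female line and 51.7 ± 8.86 CPM for the male line (SD, n = 3 each).

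Some of the differences followed chromosomes. Of the 5030 well expressed genes, the female line was higher for 16.2% and lower for 25.2%. On chromosome 14, 4 of 158 genes were higher and 108 lower, with a median log2 difference of -0.828 in the pair, -0.751 for the female line against the 8 lines and 0.0777 for the male line. On chromosome 11, 19 of 449 genes were higher and 193 lower, with a median of -0.406 in the pair, -0.383 for the female line and 0.0648 for the male line. On chromosome 2 the sign was opposite: 158 of 440 genes were higher and 38 lower, with a median of 0.317 in the pair, 0.310 for the female line and 0.0111 for the male line. Chromosome 10 was shifted in both lines, in opposite directions. There 5 of 257 genes were higher and 165 lower, with a median of -0.639 in the pair, -0.289 for the female line and 0.430 for the male line.

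The sign held along each of these chromosomes. In windows of 20 Mb, the pair's median was below 0 in all 4 windows of chromosome 14 (-0.979 to -0.793), all 7 of chromosome 10 (-0.851 to -0.568) and all 7 of chromosome 11 (-0.516 to -0.355), and above 0 in all 10 of chromosome 2 (0.132 to 0.483). Beside the other lines, the female line's chromosome 14 median of log2 CPM, -0.733 against the mean of the 8 lines, stood below their range of -0.166 to 0.210. On chromosomes 11 and 2 the female line stood at -0.358 and 0.327, where the 8 lines ranged from -0.204 to 0.206 and from -0.141 to 0.109. On chromosome 10 the female line, at -0.258, was close to lot 7 female, at -0.206. The male line stood at 0.440 there, with lot 12 male next at 0.249. On chromosome 15, both lot 6 lines were above 0, at 0.165 in the female line and 0.366 in the male line, where the 8 lines ranged from -0.245 to 0.25. Over the 3726 genes on the remaining autosomes the pair's median was -0.0172. Library totals as scaling moved all genes upward alike, so that the pair's median of chromosome 15, of -0.179, changed sign, as did those of 11 other autosomes with medians near 0.

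**Figure D5:**
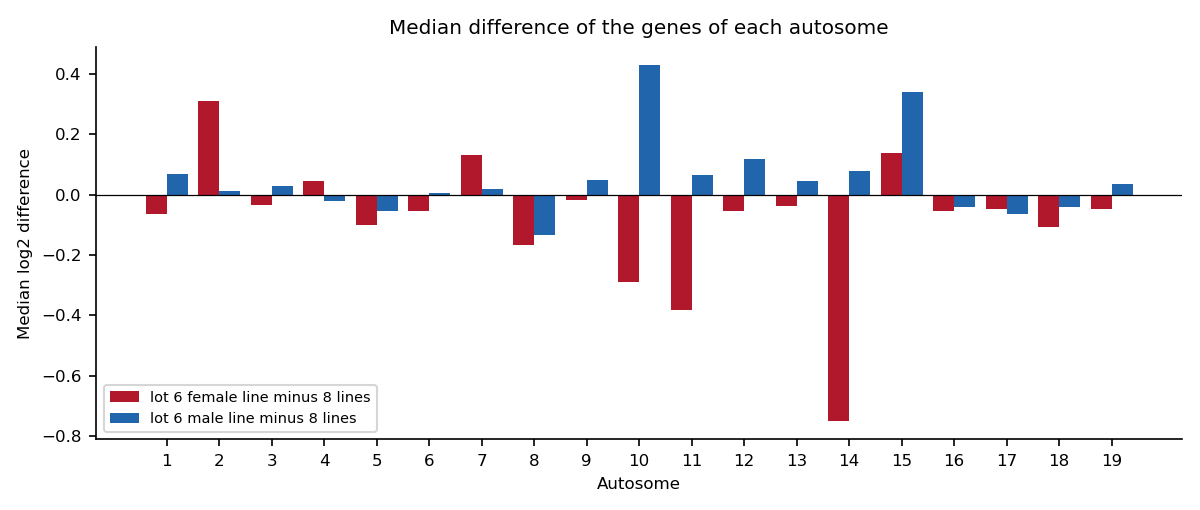
For each autosome, bars give the median log2 difference of its genes (mean log2 CPM 4 or more) from the other 8 lines, for the lot 6 female and male lines. Chromosome 14 reaches -0.751 in the female line and 0.0777 in the male line, and chromosome 10 lies at -0.289 in the female line and 0.430 in the male line.

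Genes on the other autosomes were counted separately. With chromosomes 2, 10, 11 and 14 left out of the count, a step chosen after seeing the data, 1201 genes were higher and 1018 lower within the pair, and 48 were higher and 23 lower for the female line against the 8 lines. Of the ribosomal protein genes elsewhere, 58 of 60 fell and 0 rose, with a median of -0.572, and of the assembly factors 12 of 13 fell. Translation factors elsewhere fell in 13 of 24 cases and heat shock genes in 10 of 16. Tpt1, Gnl3 and Rps24, named above for passing against the 8 lines, do lie on chromosome 14, and Npm1 lies on chromosome 11.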

How the data were processed

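RNA from 36 libraries of 10 mouse astrocyte lines was measured by BRB-seq, with sample barcodes and molecular identifiers, per the labels' protocols. The authors deposited 1 table of raw counts per gene, and whether molecular identifiers were collapsed is not given in the sources used here. Per the submitters' processing notes, cutadapt 2.10, STAR 2.7.6a, Subread 2.0.2 and the build GRCm38 were used. Identifiers were matched to GENCODE M21 for 45229 of 46078 genes, and the other 849 held 0.0295% of the counts. Tests covered autosomal genes.

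The pair was tested with edgeR 4.0.16 (quasi-likelihood, TMM, filterByExpr) on all 36 libraries with 1 coefficient per line, and each lot 6 line was set against the other 8 lines on counts summed per line. P-values were adjusted by Benjamini-Hochberg over all genes tested. DESeq2 1.42.0, other scalings, filters, covariates and left-out libraries or lines were alternatives. The procedure was tested on simulated data. Counting intervals are exact, at 95%, and, like the floor of 3 counts, cover counting error only.

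The members and gene lists were chosen with earlier results of these data known. Named genes were, by rule, the 12 highest and 12 lowest passing genes of the pair, 10 and 10 of each line against the 8 lines, 10 of smallest p for the difference between lots, and up to 6 members per list by smallest p. A few genes that met this rule are not reported here.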

Additional observations from a re-analysis of the deposited data

Results flagged for a closer look

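The lot 6 difference between the female and the male line departed from the mean difference in the other 4 lots for 31 autosomal genes (edgeR's quasi-likelihood test on line sums, Benjamini-Hochberg adjusted), and the 10 of smallest p had adjusted p of 0.0127 to 0.0309. The gap was positive for Ezr, which links actin to the membrane (6.16 on the log2 scale), Fmod (6.14), Csdc2 (4.17) and Cd34 (3.51). It was negative for Nav3 (-6.11), Adh7 (-6.05), Qrfpr, a neuropeptide receptor gene (-5.16), Npepl1 (-5.08), Tgm2 (-4.88) and P3h4 (-2.55). Ezr differed by 6.68 in lot 6 and by 0.157 to 1.01 in the other lots. Adh7 differed by -6.01 in lot 6 and by -0.366 to 0.349 elsewhere, and Nav3 by -5.64 in lot 6 and by 0.111 to 0.637 elsewhere. Qrfpr differed by -3.54 in lot 6 and by 1.37 to 1.81 in the other lots, so that the sign itself was opposite.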

How the results depend on the processing

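The total count within the pair, 3237 genes, stayed within 1.5 times its value under every alternative run, and leaving out 1 lot 6 library gave 2538 to 2758 genes in all. For the female line against the 8 lines, the count of 123 was 634 with DESeq2 (255 higher and 379 lower), 15 with sex as a covariate (7 higher and 8 lower), 1 against the 4 female lines, 3563 with the 36 libraries as the unit (1937 higher and 1626 lower), and 71 without chromosomes 2, 10, 11 and 14, chosen after seeing the data. It ranged from 52 to 192 with 1 of the 8 lines left out and from 123 to 153 with 1 lot 6 library left out. For the male line, the count of 0 was 21 with DESeq2, 1 with library totals, 1369 with the 36 libraries as the unit (855 higher and 514 lower) and 0 with any line or library left out. For the difference between lots, the count of 31 was 467 with DESeq2 (184 above and 283 below 0), 8 with library totals, 2268 with the 36 libraries as the unit (1069 above and 1199 below 0), 4 to 128 with 1 lot left out and 22 to 35 with 1 library left out. With the 36 libraries as the unit, Grb10 (0.81) and Nid1 (1.29) changed sign for the female line against the 8 lines. The cause of these changes was not tested. Over all named genes and alternatives the call within the pair was the same 5092 times, lost 176 times and gained 53 times.

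Libraries with the same number did not deviate together: the correlations over genes of the pairs were 0.116, -0.119 and -0.0192, and those of other pairs -0.196 to 0.206. With the replicate number as a block, 1681 genes were higher and 1746 lower within the pair, 3427 in all. Genes under 3 counts in a library were not detectable at this depth.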
